A study of Mus musculus with 20 samples.

Results

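The mouse mitochondrial genome encodes 6 proteins of complexes III to V of oxidative phosphorylation, and the genes of these proteins, mt-Cytb, mt-Co1, mt-Co2, mt-Co3, mt-Atp6 and mt-Atp8, were followed in the hippocampus. They were chosen by name, as 6 rows of a table of estimated counts for 33119 genes, and all 6 were among the 21724 genes that passed a filter on low counts. The RNA came from 20 mice aged 16 months, 5 of each sex and genotype, which makes 4 groups: females and males that carried hAPOE3, and females and males that carried hAPOE4. These are targeted replacement mice, homozygous for human APOE3 or human APOE4 in place of the mouse gene, on a C57BL/6 background, so that every group carried a human APOE and none served as a wild type control. The mice were perfused with buffered saline before dissection, and each library came from a single animal. Mice are named here by group and by a number from 1 to 5 in order of deposition, which pairs no animals between groups.

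Complexes III and IV pass electrons along the respiratory chain to oxygen and pump protons across the inner mitochondrial membrane, and complex V, the ATP synthase, uses the proton gradient to make ATP. Each complex is built from a few subunits encoded by mitochondrial DNA, translated inside the organelle, and many more encoded in the nucleus and imported. The mitochondrial genes have no introns and are transcribed as long precursors that are cut at transfer RNAs and then polyadenylated, so that they enter polyA libraries at high levels, above all in tissues such as brain that depend on oxidative metabolism.

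All 6 genes lie on the forward strand of the circular genome in the GRCm38 annotation, each a single exon of coding sequence. mt-Co1 runs over chrM:5328-6872 and mt-Co2 over chrM:7013-7696. mt-Atp8 at chrM:7766-7969, mt-Atp6 at chrM:7927-8607 and mt-Co3 at chrM:8607-9390 follow each other without a gap, and mt-Cytb stands apart at chrM:14145-15288. mt-Atp8 and mt-Atp6 share 43 bases, read in different frames from RNA that carries both genes, and mt-Atp6 and mt-Co3 share 1 base. The rows of mt-Atp8 and mt-Atp6 are not fully separate measurements, because the same RNA carries both genes. The whole mt-Atp8 gene and the first 120 bases of mt-Atp6 are shown 5′ to 3′ with the shared bases in capitals, because mt-Atp8 had the largest genotype difference of the 6 genes in females.
mt-Atp8: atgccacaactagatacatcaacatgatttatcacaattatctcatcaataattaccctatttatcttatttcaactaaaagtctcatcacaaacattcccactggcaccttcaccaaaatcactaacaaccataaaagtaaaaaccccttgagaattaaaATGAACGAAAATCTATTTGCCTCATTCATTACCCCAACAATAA
mt-Atp6, chrM:7927-8046: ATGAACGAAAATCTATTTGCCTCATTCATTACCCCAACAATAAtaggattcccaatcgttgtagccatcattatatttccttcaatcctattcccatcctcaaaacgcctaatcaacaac

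The last 30 bases of the other 5 genes are shown because the genes differ in how they end, with the stop codon, or what the gene holds of it, in capitals. mt-Co1, mt-Co2 and mt-Atp6 end in a complete TAA, the last base of mt-Atp6 being the first of mt-Co3. mt-Co3 and mt-Cytb end in a lone T, which polyadenylation is known to complete to a stop codon.
mt-Co1, chrM:6843-6872: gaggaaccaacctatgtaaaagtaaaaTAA
mt-Co2, chrM:7667-7696: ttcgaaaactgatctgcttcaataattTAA
mt-Atp6, chrM:8578-8607: gtaagcctatatctacatgataatacaTAA
mt-Co3, chrM:9361-9390: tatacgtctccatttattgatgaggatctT
mt-Cytb, chrM:15259-15288: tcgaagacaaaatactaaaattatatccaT

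Between 35778879 and 52520279 counts were assigned per mouse, and the 6 genes together took 5.89% ± 0.917 of them (SD, n = 5) in females with hAPOE3 and 4.72% ± 0.483 in females with hAPOE4, and 5.61% ± 0.665 and 4.89% ± 0.644 in the corresponding males. All 6 markers of hippocampal neurons passed the filter, and their summed level was 302 to 654 TMM-normalized CPM, the count scaled to a common library size. In 5 mice, hAPOE3 females 4 and 5 and hAPOE3 males 3, 4 and 5, the score of 77 cytosolic ribosomal protein genes stood apart, at 0.26 or more on a log2 scale centred over all mice against 0.06 or less in the other 15. The genotype differences of the 6 genes are therefore given with and without these 5 mice. All 5 are hAPOE3 mice, with values among the higher of that genotype in every gene except mt-Atp8. Leaving them out was thus bound to shrink the differences of the other 5 genes, and no conclusion is drawn from that. The summed level of 12 choroid plexus markers, none of them at 0 in any mouse, ranged from 272 to 5810 CPM in females with hAPOE3, 278 to 9530 in females with hAPOE4, 281 to 4000 in males with hAPOE3 and 313 to 4300 in males with hAPOE4, and its part in the results was not tested beyond a fit with it as a covariate. In bulk tissue, fewer cells of a type and less RNA per cell cannot be told apart, and a share of RNA taken by mitochondrial transcripts can differ for either reason.

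Per kilobase of gene length, mt-Co1 had the highest level, at 12980 ± 1753 CPM per kb (SD over 20 mice). mt-Co2 followed at 12116 ± 2161, mt-Atp6 at 11574 ± 1968 and mt-Co3 at 10418 ± 2115. mt-Cytb, the only mitochondrial gene of complex III, stood lower at 6770 ± 1102, and mt-Atp8 was lowest at 3547 ± 805 CPM per kb. These ranges overlapped for the first 4 genes. The lengths are the annotated ones, 204 bases for mt-Atp8, and not effective lengths. Because mt-Atp8 and mt-Atp6 are read from RNA that carries both, the low value of mt-Atp8 does not show a lower amount of its RNA. Within a mouse the order was steadier: mt-Co1 was above mt-Co2 in 19 of 20 mice, mt-Co2 above mt-Atp6 in 18, and each later step of the order was seen in 20 of 20. The coefficient of variation over all mice was smallest for mt-Co1, at 13.5%, and largest for mt-Atp8, at 22.7%.

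The order of the 4 group means was the same for each of the 6 genes, with hAPOE3 females highest, then hAPOE3 males, hAPOE4 males and hAPOE4 females. Neighbours in that order did not differ past the threshold of an adjusted p of 0.05 for any of the 6, by edgeR's quasi-likelihood test adjusted over all genes, in the comparisons given below. In the plot of CPM by mouse the highest hAPOE3 value lay above the highest hAPOE4 value of the same sex for every gene, except for mt-Atp8 in males, with the 5 mice of high ribosomal protein genes among the higher hAPOE3 values of every gene except mt-Atp8.

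**Figure D1:**
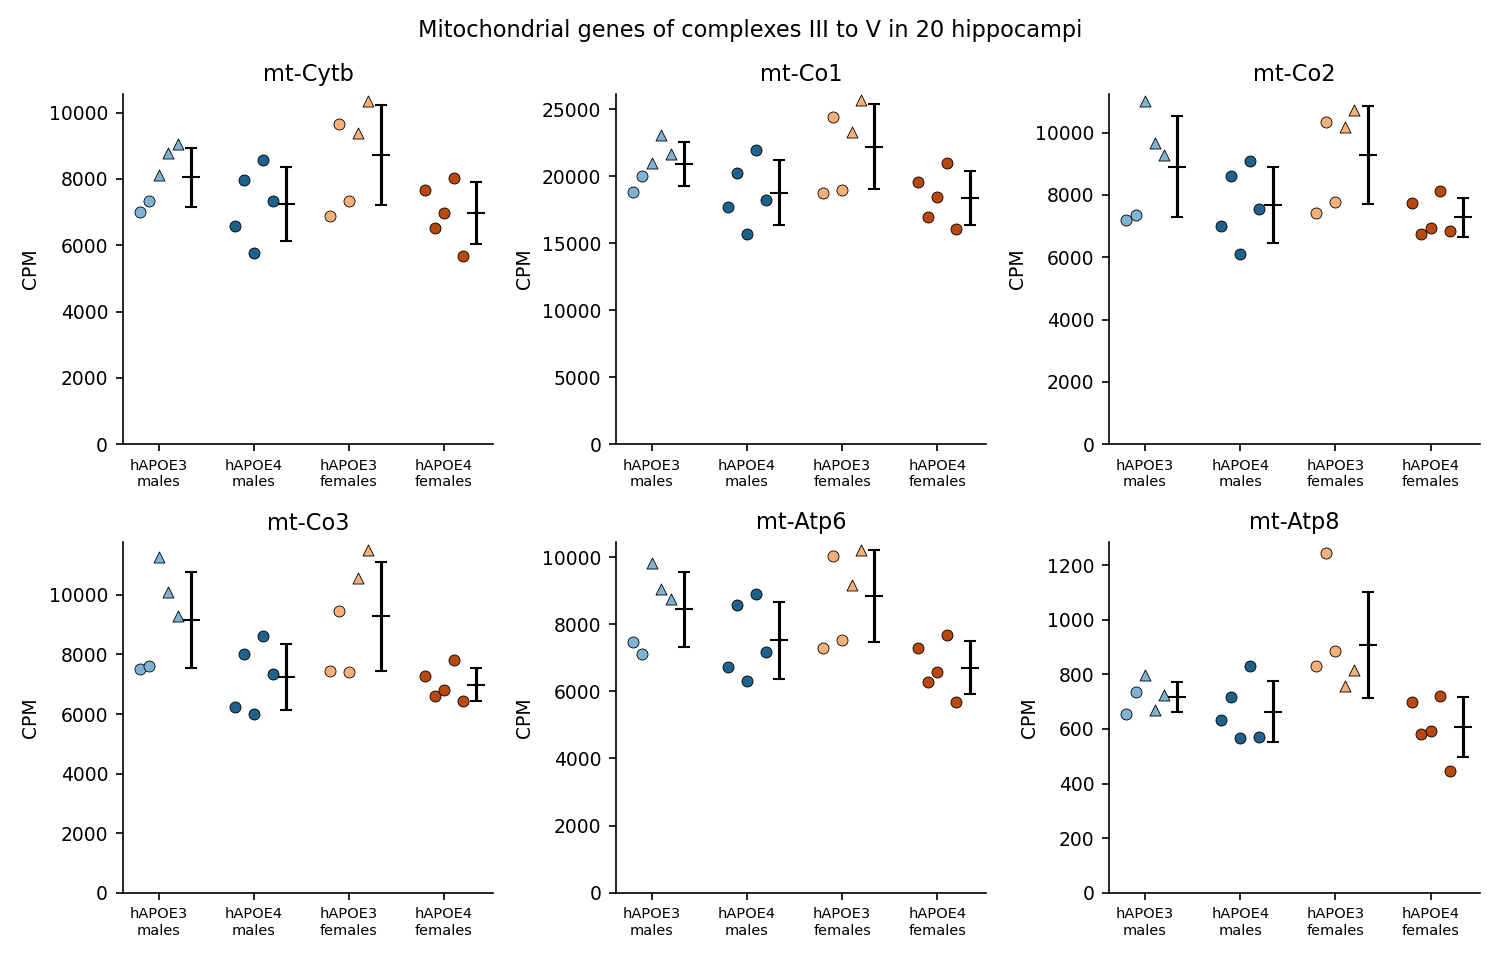
TMM-normalized CPM of each gene in each mouse (y axis, from 0, with its own scale per gene) for the 4 groups on the x axis, where points are mice, triangles are the 5 mice with high ribosomal protein genes, and the bar beside each group is the mean with the SD of 5 mice. In mt-Atp8 the hAPOE3 females, at 757 to 1245 CPM, lie above all hAPOE4 females, at 447 to 722, whereas the groups overlap in the other 5 genes.

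mt-Cytb, the cytochrome b of complex III that carries the quinone sites of the complex, was measured at 6895, 9645, 7342, 9383 and 10341 CPM in hAPOE3 females 1 to 5 and at 7670, 6526, 6975, 8039 and 5680 CPM in hAPOE4 females. Females 1 and 3 of the hAPOE3 group lay within the hAPOE4 range, and the other 3 above it. The males overlapped throughout, with 7008 to 9039 CPM in hAPOE3 and 5751 to 8562 CPM in hAPOE4 mice. In females the log2 fold change of mt-Cytb, hAPOE4 against hAPOE3, was -0.32 (standard error 0.14, edgeR adjusted p = 0.437), whereas males were at -0.15 (standard error 0.14, edgeR adjusted p = 0.728). Without the 5 mice the values were -0.19 in females and 0.00 in males.

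The 3 mitochondrial subunits of complex IV form its catalytic core, mt-Co1 holding the site where oxygen is reduced and mt-Co2 receiving electrons from cytochrome c. mt-Co1 averaged 22195 ± 3182 CPM in hAPOE3 females (SD, n = 5) and 18374 ± 1991 CPM in hAPOE4 females, against 20899 ± 1606 and 18750 ± 2425 CPM in hAPOE3 and hAPOE4 males. Its log2 fold change was -0.27 for females (standard error 0.13, edgeR adjusted p = 0.474) and -0.16 for males (standard error 0.13, edgeR adjusted p = 0.689). Of the 6 genes mt-Co1 had the smallest difference in females. mt-Co2 averaged 9292 ± 1566 and 7282 ± 615 CPM in hAPOE3 and hAPOE4 females (SD, n = 5), and 8900 ± 1620 and 7676 ± 1208 CPM in males. Its log2 fold change was -0.35 for females (standard error 0.15, edgeR adjusted p = 0.400) and -0.21 for males (standard error 0.15, edgeR adjusted p = 0.645). With the 5 mice left out mt-Co1 was at -0.17 in females and -0.06 in males, and mt-Co2 at -0.22 in females and 0.07 in males, where its direction turned.

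mt-Co3 is a core subunit that itself holds no metal centre. The hAPOE3 females were at 7440, 9470, 7417, 10558 and 11501 CPM and the hAPOE4 females at 7274, 6594, 6793, 7824 and 6452 CPM. The hAPOE3 males were at 7524, 7628, 11256, 10084 and 9293 CPM and the hAPOE4 males at 6244, 8024, 6016, 8606 and 7351 CPM. In both sexes 2 of 5 hAPOE3 mice lay inside the hAPOE4 range and 3 above it, and 5 of these 6 high mice were those with high ribosomal protein genes. The log2 fold change of mt-Co3 was -0.41 for females (standard error 0.15, edgeR adjusted p = 0.298) and -0.34 for males (standard error 0.15, edgeR adjusted p = 0.509), the latter being the largest of the 6 genes in males. Without the 5 mice it was -0.21 in females and -0.07 in males.

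mt-Atp6, the membrane subunit of complex V next to the proton-carrying ring, was at 7301, 10039, 7519, 9179 and 10211 CPM in hAPOE3 females and at 7290, 6287, 6584, 7690 and 5694 CPM in hAPOE4 females. Again hAPOE3 females 1 and 3 lay within the hAPOE4 range. In males it ranged from 7115 to 9825 CPM in hAPOE3 and from 6294 to 8890 CPM in hAPOE4 mice, which overlap. Its log2 fold change was -0.40 for females (standard error 0.14, edgeR adjusted p = 0.249) and -0.16 for males (standard error 0.14, edgeR adjusted p = 0.701). Without the 5 mice the values were -0.30 in females and 0.04 in males.

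mt-Atp8, a small membrane subunit of complex V, was at 831, 1245, 884, 757 and 815 CPM in hAPOE3 females and at 698, 582, 592, 722 and 447 CPM in hAPOE4 females. These groups did not overlap, and the high value of 1245 CPM belonged to hAPOE3 female 2, which was not among the 5 mice with high ribosomal protein genes. In males it was at 656, 735, 797, 670 and 726 CPM in hAPOE3 mice and at 632, 716, 567, 831 and 571 CPM in hAPOE4 mice, and these groups overlapped. The log2 fold change of mt-Atp8 was -0.57 in females (95% interval -0.88 to -0.27, edgeR adjusted p = 0.0787), a level 32.9% lower, and -0.11 in males (95% interval -0.41 to 0.19, edgeR adjusted p = 0.817). Because mt-Atp6 is read from RNA that carries both genes, the larger female difference of mt-Atp8 does not show a change in its RNA alone. Unlike that of the other 5 genes, the female difference of mt-Atp8 was not smaller without the 5 mice, at -0.69 (edgeR adjusted p = 0.103), and without hAPOE3 female 2 it was -0.43 (edgeR adjusted p = 0.198).

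In females 0 of 6 genes passed the adjusted threshold, against 0.667% of all genes tested, and DESeq2's Wald test called mt-Atp8 (adjusted p = 0.0195). All 6 estimates were below 0, as were 49.7% of all genes, and all 6 had an unadjusted edgeR p under 0.05 in the lower direction, which 6.54% of all genes had. For 1 of 6, mt-Atp8, the female groups did not overlap, with hAPOE4 lower, as was so for 2.29% of all genes. In males all 6 estimates were again below 0, as were 49.7% of all genes. There 0 of 6 genes passed, against 0.621% of all genes, and only mt-Co3 had an unadjusted edgeR p under 0.05, as 4.56% of all genes had in the lower direction. For 0 of 6 the male groups did not overlap, against 1.44% of all genes in either direction. Markers of other cells moved in the same comparisons. The summed level of 5 red cell markers was 15.1 to 303 CPM in hAPOE3 females (median 18.9) and 9.17 to 31.9 CPM in hAPOE4 females (median 19.7). In males it was 18.6 to 197 CPM (median 50.6) with hAPOE3 and 15.9 to 65 CPM (median 18.1) with hAPOE4. No red cell marker was at 0 in any mouse. In females the medians of the sum were thus close, while the hAPOE3 range reached far higher. The median log2 difference of the 5 red cell markers was -1.88 in females, with 4 of 5 at an unadjusted edgeR p under 0.05. In males it was -1.20, with 0 of 5. The 6 striatal markers summed to 69.3 to 527 CPM in hAPOE3 males (median 87.3) and 56.7 to 119 CPM in hAPOE4 males (median 72). Their median log2 difference was -1.01 in males, with 3 of 6 at an unadjusted edgeR p under 0.05. In females it was -0.43, with 0 of 6. Other sets moved up: 12 of 12 choroid plexus markers in females (median 0.87) and 5 of 5 thalamic markers in males (median 0.43). So did 5 of 5 astrocyte markers (median 0.10) and 4 of 4 ependymal markers (median 0.16) in females. In each of these sets 0 had an unadjusted edgeR p under 0.05. At that level 1 of 5 endothelial markers, Flt1, was higher in females, and 1 of 5 microglial markers, C1qa, was lower in males. None of these markers passed the adjusted threshold, and their part in the results was not tested beyond the fit with the choroid plexus covariate. The 6 genes come from the same strand of the same genome and their levels were correlated between mice, those of mt-Atp8 less than the others, so that their number is not a number of independent observations.

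Over both sexes the mean hAPOE4 difference was again below 0 for each of the 6, as it was for 49.7% of all genes. It was -0.24 for mt-Cytb (edgeR adjusted p = 0.212), -0.21 for mt-Co1 (edgeR adjusted p = 0.209) and -0.28 for mt-Co2 (edgeR adjusted p = 0.154), each on the log2 scale. It was -0.37 for mt-Co3 (95% interval -0.59 to -0.15, edgeR adjusted p = 0.0627), -0.28 for mt-Atp6 (edgeR adjusted p = 0.128) and -0.34 for mt-Atp8 (95% interval -0.56 to -0.13, edgeR adjusted p = 0.0805). None passed the threshold by edgeR, which 2.45% of all genes did, while all 6 had an unadjusted p under 0.05 in the lower direction, as 9.7% of all genes had. By DESeq2, mt-Co3 (adjusted p = 0.0126) and mt-Atp8 (adjusted p = 0.0378) passed. Without the 5 mice the log2 differences over both sexes were -0.09 for mt-Cytb, -0.11 for mt-Co1, -0.08 for mt-Co2, -0.14 for mt-Co3, -0.13 for mt-Atp6 and -0.38 for mt-Atp8, the last with an edgeR adjusted p of 0.167. The interval plot shows the 3 genotype comparisons side by side, and they share mice: the comparison over both sexes is the average of the other two.

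**Figure D2:**
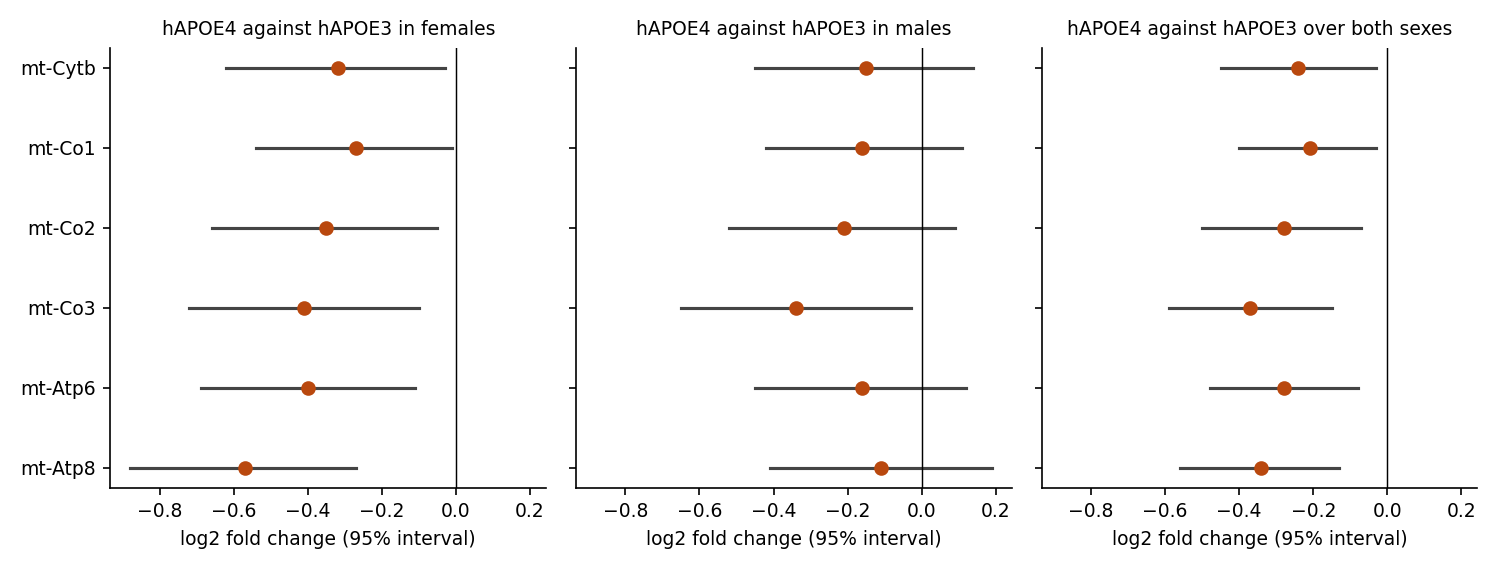
Log2 fold change of hAPOE4 against hAPOE3 mice (x axis) for each of the 6 genes (y axis), in females, in males and over both sexes, with points for the edgeR estimate and lines for its 95% interval before adjustment over genes. All 18 estimates lie below 0, and among the 6 male intervals only that of mt-Co3, -0.65 to -0.03, leaves out 0.

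Over both sexes, where 2.45% of all genes passed the threshold, some other products of the same genome passed. The 6 genes did not, though mt-Co3 was near it, at an edgeR adjusted p of 0.0627. The ribosomal RNA genes mt-Rnr1 and mt-Rnr2, which form the mitochondrial ribosome that translates the 6 messages, differed by -0.43 (edgeR adjusted p = 0.0281) and -0.39 (edgeR adjusted p = 0.0473) on the log2 scale, hAPOE4 being lower. Among the 7 complex I genes mt-Nd6, the only protein gene on the opposite strand, passed at -0.45 (edgeR adjusted p = 0.0278). The median of the 7 complex I genes was -0.22 and that of the 6 genes of complexes III to V was -0.28.

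Between the sexes the 6 genes differed little. In hAPOE3 mice, females against males, the log2 values ran from 0.02 for mt-Co3 and 0.06 for mt-Co2 to 0.34 for mt-Atp8. The value of mt-Atp8 (95% interval 0.03 to 0.64, edgeR adjusted p = 0.805) was the only one with an unadjusted edgeR p under 0.05, as 5.22% of all genes had in either direction. The hAPOE3 females, at 757 to 1245 CPM, and the hAPOE3 males, at 656 to 797 CPM, overlapped in mt-Atp8. Leaving out the 5 mice, the hAPOE3 values ran from 0.10 for mt-Co1 to 0.51 for mt-Atp8, with mt-Co2 at 0.23. In hAPOE4 mice the values ran from -0.17 for mt-Atp6 to -0.03 for mt-Co1, each with an edgeR adjusted p of 1. Over both genotypes they ran from -0.05 for mt-Atp6 to 0.11 for mt-Atp8. In these 3 comparisons 0 of 6 passed the threshold, against 0.0414% of all genes in hAPOE3 mice, 0.437% in hAPOE4 mice and 0.129% over both genotypes.

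The interaction, the genotype difference in females less that in males, tests whether the female difference was the larger. It was -0.46 for mt-Atp8 (95% interval -0.89 to -0.03, edgeR adjusted p = 1) and between -0.24 and -0.07 for the other 5 genes, so that 6 of 6 were below 0 beside 50.2% of all genes. The interaction without the 5 mice was -0.62 for mt-Atp8, -0.34 for mt-Atp6 and -0.29 for mt-Co2, and between -0.19 and -0.11 for the other 3. None of the 6 passed, against 0.184% of all genes, and 1 of 6 had an unadjusted p under 0.05 in the lower direction, against 2.07% of all genes. A larger difference in females than in males was therefore not shown for any of them.

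The nuclear partners gave a different picture in females. Of 42 nuclear subunits, 9 of complex III, 16 of complex IV and 17 of complex V, 0 passed in any of the 7 comparisons by edgeR. Of all genes 0.0414% to 2.45% passed, depending on the comparison. In females the median log2 fold change of hAPOE4 against hAPOE3 was -0.05 for complex III, -0.12 for complex IV and -0.06 for complex V, beside -0.32 for mt-Cytb, and 1 of the 42 had an unadjusted edgeR p under 0.05, in the lower direction, beside 6.54% of all genes. That was Uqcrb, a small subunit of complex III, at -0.27 (edgeR adjusted p = 0.434). Cyc1, the cytochrome c1 next to mt-Cytb, was at 0.00 (edgeR adjusted p = 0.996) and the Rieske protein Uqcrfs1 at -0.08 (edgeR adjusted p = 0.906).

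In complex IV the regulatory subunit Cox4i1 was at -0.02 in females (edgeR adjusted p = 0.987) and Cox5a at -0.13 (edgeR adjusted p = 0.852), and the smallest p belonged to Ndufa4, once assigned to complex I, at -0.21 (edgeR adjusted p = 0.689). In complex V the catalytic subunits Atp5a1 and Atp5b were at 0.12 (edgeR adjusted p = 0.716) and 0.15 (edgeR adjusted p = 0.722). Usmg5, a small membrane subunit also called DAPIT, was at -0.30 (edgeR adjusted p = 0.538). Of the 17 nuclear subunits of complex V, 13 were below 0 in females, beside 49.7% of all genes. Their median was -0.06, and 0 of 17 had an unadjusted edgeR p under 0.05. The other 4 subunits, Atp5a1 and Atp5b among them, were above 0. None of these values passed the threshold.

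In males the nuclear medians were lower than those of the mitochondrial genes, at -0.26 for complex III, -0.32 for complex IV and -0.25 for complex V, with 9 of 42 at an unadjusted edgeR p under 0.05, all lower, beside 4.56% of all genes in that direction. The smallest p values belonged to Uqcrb at -0.27 (edgeR adjusted p = 0.493), Cox8a of complex IV at -0.44 (edgeR adjusted p = 0.473) and Atp5j2 of complex V at -0.44 (edgeR adjusted p = 0.398). Cyc1 was at -0.04, Uqcrfs1 at -0.18, Cox4i1 at -0.33, Cox5a at -0.26, Atp5a1 at 0.02 and Atp5b at 0.02. In the absence of the 5 mice the median of the 42 nuclear genes was 0.12 in males and 0.20 in females, both above 0. All 5 are hAPOE3 mice with high nuclear subunit sums, so leaving them out was bound to raise these medians. No conclusion is drawn from that rise.

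**Figure D3:**
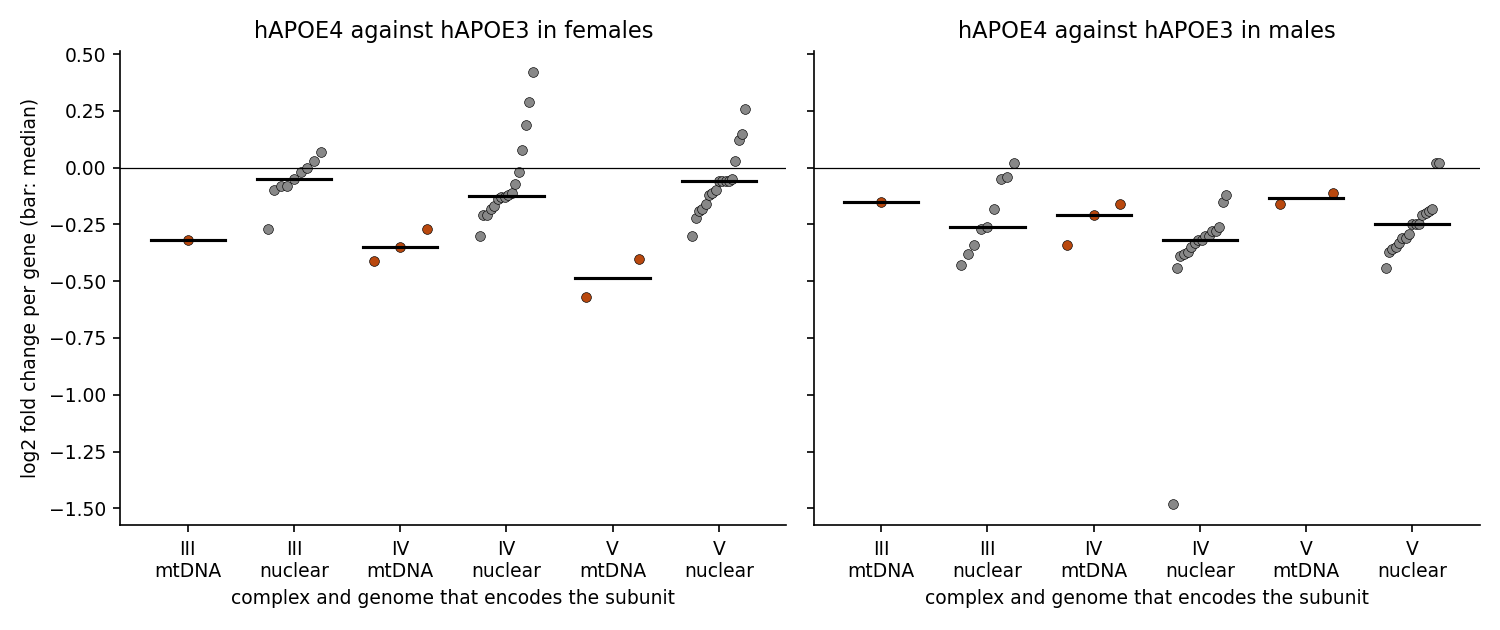
Log2 fold change of hAPOE4 against hAPOE3 mice (y axis) for each subunit of complexes III, IV and V, mitochondrial genes in orange and nuclear genes in grey, in females (left) and males (right), with bars at the medians. In females the mitochondrial medians lie below the nuclear ones, whose medians are -0.05, -0.12 and -0.06, and in males the nuclear medians are the lower, at -0.26, -0.32 and -0.25, with Cox8b as the outlying gene at -1.48.

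Over both sexes 13 of 42 nuclear subunits had an unadjusted edgeR p under 0.05, all of them lower in hAPOE4 mice, beside 9.7% of all genes in that direction. The median of the 42 was -0.20, and it turned to 0.16 without the 5 mice. The smallest p values belonged to Uqcrb at -0.27 (edgeR adjusted p = 0.0872), Usmg5 at -0.34 (edgeR adjusted p = 0.109) and Ndufa4 at -0.26 (edgeR adjusted p = 0.166). Cyc1 was at -0.02, Uqcrfs1 at -0.13, Cox4i1 at -0.18, Cox5a at -0.20, Atp5a1 at 0.07 and Atp5b at 0.08. In the interaction the estimates of the 42 nuclear genes were all 0.00 or higher, with a median of 0.16, beside 10809 of 21724 genes above 0. Without the 5 mice the nuclear median was 0.05. Those of the 6 mitochondrial genes were all below 0, with a median of -0.15 over all mice. No nuclear subunit had an unadjusted p under 0.05 there, the smallest belonging to Uqcr10 of complex III at 0.32, Cox8b of complex IV at 1.56 and Atp5g2 of complex V at 0.62, each with an edgeR adjusted p of 1. The difference between the mitochondrial and the nuclear genes was not tested.

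Between the sexes, females against males, 0 of 42 nuclear subunits passed, beside 0.0414% of all genes in hAPOE3 mice, 0.437% in hAPOE4 mice and 0.129% over both genotypes. The smallest p values in hAPOE3 mice were those of Uqcrc1, a core subunit of complex III, at -0.28, the complex IV isoform Cox6a2 at -0.55 and Atp5g2, a ring subunit of complex V, at -0.46, each with an edgeR adjusted p of 0.805. In hAPOE4 mice they were those of Uqcrc1 at -0.16, Cox8b at 2.34 (edgeR adjusted p = 0.409) and Atp5g2 at 0.16. Over both genotypes they were those of Uqcrc1 at -0.22, Cox8b at 1.56 (edgeR adjusted p = 0.307) and Atp5b at -0.12. Cox8b, a complex IV isoform of muscle and brown fat, was low here, with group means of 0.52 to 2.67 CPM.

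Summed per complex, the mitochondrial genes gave several times the CPM of the nuclear subunits. For complex V the ratio of mitochondrial to nuclear CPM was 2.62 to 3.83 in females with hAPOE3 and 1.77 to 2.77 in females with hAPOE4, and 2.37 to 2.75 and 2.08 to 3.1 in the corresponding males. For complex IV it ranged from 17.3 to 26.5 in hAPOE3 females and from 15.1 to 20.5 in hAPOE4 females, and for complex III from 8.33 to 11.6 and from 5.82 to 9.09. In males the order was not the same: complex IV ranged from 14.4 to 19.6 in hAPOE3 and from 15.7 to 21.9 in hAPOE4 mice, and complex III from 6.64 to 8.32 and from 6.35 to 9.54. The ranges overlapped between genotypes in both sexes. In the scatter of the 2 sums the 5 mice with high ribosomal protein genes stood apart in the nuclear sums. Their mitochondrial sums were high but not apart: for complex III hAPOE4 male 4, at 8562 CPM, lay above hAPOE3 male 3, at 8107 CPM. The other hAPOE3 mouse with high mitochondrial genes, hAPOE3 female 2, had nuclear sums near the low end, at 830 CPM for complex III beside 9645 CPM of mt-Cytb.

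**Figure D4:**
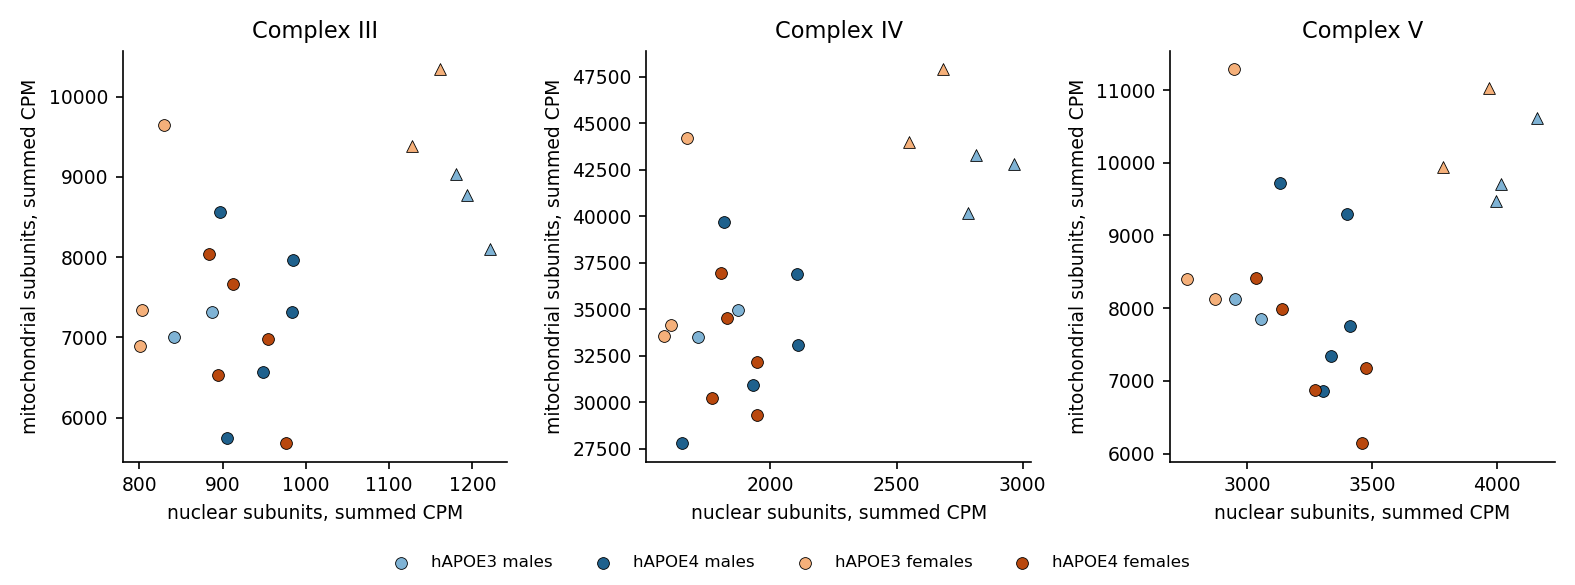
Summed CPM of the mitochondrial subunits (y axis) against that of the nuclear subunits (x axis) of complexes III, IV and V per mouse, coloured by group, with triangles for the 5 mice with high ribosomal protein genes; axes do not start at 0. The triangles lie to the right of all other mice in each complex, and hAPOE3 female 2 stands at the upper left, with complex III sums of 830 CPM nuclear and 9645 CPM mitochondrial.

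Factors that build the complexes or express mitochondrial DNA did not pass either. Of 30 assembly factors of complexes III to V that were tested, 0 passed in any comparison, beside 0.0414% to 2.45% of all genes. At such shares a count of 0 in a short list says little about its genes. The smallest p over both sexes was that of Taco1, the translational activator of mt-Co1, at a log2 value of 0.40, higher in hAPOE4 mice (edgeR adjusted p = 0.0933), with 0.50 in females (edgeR adjusted p = 0.273). Its level was 7 ± 1.54 CPM in hAPOE3 females (SD, n = 5) and 9.9 ± 1.5 CPM in hAPOE4 females. In males the smallest p was that of Uqcc2, a complex III assembly factor, at -0.47 (edgeR adjusted p = 0.460). Between the sexes it was that of the complex IV factor Surf1 at -0.29 in hAPOE3 mice, the complex V factor Atpaf1 at -0.18 in hAPOE4 mice and the complex IV factor Cox10, which makes heme for mt-Co1, at -0.16 over both genotypes, and in the interaction that of the complex V factor Fmc1 at 0.38 (edgeR adjusted p = 1).

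Of 37 factors of mitochondrial DNA replication, transcription, RNA processing and translation, 0 passed in any comparison, again beside 0.0414% to 2.45% of all genes. The smallest p was that of the helicase Twnk in females, at 0.24 (edgeR adjusted p = 0.455), of the transcription factor Nrf1 in males, at -0.15 (edgeR adjusted p = 0.623), and of Lrpprc, which stabilises mitochondrial messages, over both sexes, at 0.16 (edgeR adjusted p = 0.258). Polrmt, the mitochondrial RNA polymerase, had it in each comparison of the sexes, at -0.30 in hAPOE3 mice (edgeR adjusted p = 0.805), -0.17 in hAPOE4 mice (edgeR adjusted p = 0.923) and -0.23 over both genotypes (edgeR adjusted p = 0.192), females being the lower. In the interaction it belonged to Mterf4 at 0.23 (edgeR adjusted p = 1). The values of these factors were thus small, and the 37 were split in direction. In females 17 were lower and 20 higher in hAPOE4 mice, with a median of 0.02. In males 22 were lower and 15 higher, and over both sexes 19 were lower and 18 higher, with medians of -0.01 and 0.00.

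The rows of mt-Co1, mt-Co2, mt-Atp6 and mt-Co3 are uncertain because the nuclear genome holds near-identical copies of these genes, inserted mitochondrial DNA that is annotated as pseudogenes. A block on the reverse strand of chromosome 1 holds Gm29216 (chr1:24615706-24616197), a copy of the last 483 bases of mt-Co1 at 99.793% identity. Next to it lie Gm28661 (chr1:24614885-24615565), identical to mt-Co2 over 681 of its 684 bases, Gm10925 (chr1:24613974-24614651), identical to mt-Atp6 over 678 of 681, and Gm28437 (chr1:24613189-24613971), identical to mt-Co3 over 783 of 784. For mt-Atp8 no copy of at least 100 bases at 90% identity was found among annotated transcripts. The genome itself was not searched, nor were the bases between Gm10925 and Gm28661, where mt-Atp8 would lie in the mitochondrial order. An unannotated copy of mt-Atp8 there is therefore not excluded. A read from an identical stretch fits the mitochondrial and the nuclear gene equally well, and reads of the pair cannot be told apart there.

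Gm29216 differs from the aligned part of mt-Co1 by 1 base, A1066T, counted from the first base of mt-Co1. It is shown here in capitals with its surroundings, 5′ to 3′ along mt-Co1, because this base alone, with the flank of the copy outside the alignment, separates the pair. The first 9 bases of the Gm29216 stretch are outside the alignment.
mt-Co1, chrM:6363-6423: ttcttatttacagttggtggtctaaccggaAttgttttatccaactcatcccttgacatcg
Gm29216, chr1:24616155-24616197, reverse strand: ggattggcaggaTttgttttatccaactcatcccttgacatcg

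Gm29216 took 40057 to 160135 counts per mouse, or 4.47% to 15.5% of the counts of mt-Co1 and Gm29216 together. The share was 7.02%, 8.43%, 7.21%, 10.9% and 9.9% in hAPOE3 females 1 to 5 and 5.41%, 6.08%, 4.47%, 4.89% and 8.13% in hAPOE4 females. It was 7.05%, 6.46%, 15.5%, 10.8% and 10.2% in hAPOE3 males and 6%, 10.2%, 8.61%, 7.74% and 9.7% in hAPOE4 males. The share was thus not constant, and it was highest in hAPOE3 male 3 and, in females, in hAPOE3 females 4 and 5, all of which had high ribosomal protein genes. Gm29216 itself differed by -0.96 in females (standard error 0.27, edgeR adjusted p = 0.126) and by -0.71 over both sexes (edgeR adjusted p = 0.0528), more than mt-Co1 at -0.27 and -0.21. With the counts of the copies added, mt-Co1 was at -0.32 in females and -0.25 over both sexes.

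The other copies took few counts beside their mitochondrial partners. Gm28661 took at most 1.34% of its pair with mt-Co2, and Gm10925 at most 0.498% of its pair with mt-Atp6. Gm10925 differed by -2.45 on the log2 scale in females (standard error 0.57, edgeR adjusted p = 0.0525) but was at -0.10 in males (edgeR adjusted p = 0.963), with 47 to 1318 counts per mouse. Gm28661 was at -0.13 in females (edgeR adjusted p = 0.977) and -0.24 in males (edgeR adjusted p = 0.935). The remaining rows, Gm13340 and Gm11512 of mt-Co1, Gm13341 of mt-Co2, Gm43743 of mt-Atp6 and Gm11410 of mt-Cytb, held at most 413 counts in any mouse, and Gm28437 had no row in the table.

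The overlapping pair of complex V did not keep a fixed ratio. mt-Atp8 stood at 11.4, 12.4, 11.8, 8.24 and 7.98 counts per 100 counts of mt-Atp6 in hAPOE3 females 1 to 5 and at 9.58, 9.26, 8.99, 9.39 and 7.86 in hAPOE4 females. In males it stood at 8.78, 10.3, 8.11, 7.41 and 8.3 in hAPOE3 mice and at 9.42, 8.35, 9.01, 9.34 and 7.95 in hAPOE4 mice. hAPOE3 females 1, 2 and 3 were the highest 3 of all 20 mice, whereas hAPOE3 females 4 and 5, from the same group but with high ribosomal protein genes, fell among the lowest values. The female hAPOE3 group thus held values near both ends of the range, and the scatter of the pair ratios shows it apart from the share of Gm29216.

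**Figure D5:**
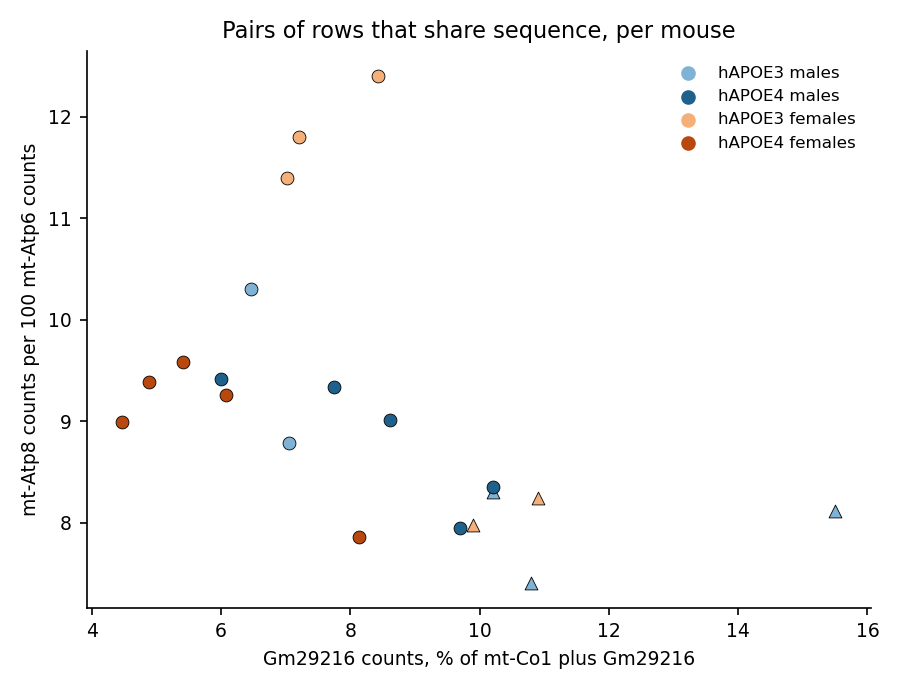
Counts of mt-Atp8 per 100 counts of mt-Atp6 (y axis) against the share of Gm29216 in the counts of mt-Co1 plus Gm29216 (x axis) per mouse, coloured by group, with triangles for the 5 mice with high ribosomal protein genes; axes do not start at 0. hAPOE3 females 1 to 3 are at 11.4 to 12.4 on the y axis, the 5 triangles are at 7.41 to 8.3, and hAPOE3 male 3 is farthest right at 15.5%.

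Across the 20 mice the levels of the 6 genes followed each other, as Pearson correlations of log2 CPM show, given as a description since these genes share libraries, depth and precursor RNA. The correlation was 0.98 between mt-Cytb and mt-Co1, 0.97 between mt-Co2 and mt-Co3 and 0.96 between mt-Co2 and mt-Atp6. mt-Atp8 followed the others less closely, from 0.58 with mt-Co3 to 0.75 with mt-Atp6. Among 16090 genes ranked by their correlation with the mean of the 6, the nearest of the mitochondrial genome were mt-Nd1 (0.99), mt-Nd6 (0.95), mt-Rnr2 (0.92), mt-Nd2 (0.92) and mt-Rnr1 (0.91). The nearest rows of the nuclear genome were Zfp708 (0.88), Gm28438 (0.88), Rbm25 (0.88), Ppig (0.87) and Gm44997 (0.86), of which Gm28438 is the copy of mt-Nd3 in the same block of chromosome 1, at 99.71% identity over 345 bases.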

How the data were processed

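From hippocampal RNA the authors prepared polyA libraries, read both ends of each fragment, quantified an Ensembl set of mouse cDNA with Salmon 0.91 and turned the result into gene-level values through tximport. Their deposited estimated counts are whole numbers without normalization, and 0 sample columns were left out. Their normalized counts, deposited as a signal made with DESeq2, served only to recover length offsets for an alternative.

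A quasi-likelihood test of edgeR 4.0.16 (R 4.3.3) was run on these counts after TMM and filterByExpr by group (21724 of 33119 genes), with one mean per group over all 20 mice, Benjamini-Hochberg adjustment over all genes and a threshold of 0.05, in 7 comparisons of genotype, sex and their interaction. The standard error is the log2 fold change over the square root of F. Scores and correlations use log2 CPM with a prior count of 2. Every one of the 190 library pairs differed beyond sampling noise (lowest chi-square 9.39 per degree of freedom). With at least 35778879 counts per mouse, counting error was small beside the spread between mice.

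The members and gene lists were chosen with earlier results of these data known. Named were the 6 genes, 6 fixed nuclear subunits, the gene with the smallest p of each list where none passed, the 5 mitochondrial and 5 nuclear genes most correlated with the mean of the 6, and nuclear copies (blastn, at least 100 bases, 90% identity) among GENCODE transcripts of GRCm38, which matched 31059 symbols and gave the sequences. Scripts were tested on simulated counts. The alternatives are those of the closing section, and length offsets, added copies and leaving out 5 mice were chosen after seeing the data.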

Additional observations from a re-analysis of the deposited data

Results flagged for a closer look

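Among 24 sets of 5 mice, 6 genes in 4 groups, 1 held a value far from the others: mt-Atp8 in hAPOE3 females was 1245 CPM in hAPOE3 female 2, against 757 to 884 CPM in the other 4, a gap of 0.74 of the whole range where 0.71 is the limit for 5 values. Chance alone would mark about 1 in 20 such sets.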

How the results depend on the processing

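Over 7 comparisons and all alternatives 0 of 6 genes passed the threshold except as follows. DESeq2's Wald test called 1 of 6 in females (mt-Atp8, -0.56) and 2 of 6 over both sexes (mt-Co3, -0.37, and mt-Atp8, -0.34), and the choroid plexus covariate 1 of 6 over both sexes (mt-Co3, -0.37, adjusted p = 0.0497). Of the 42 nuclear subunits the covariate called 1 in males and 1 over both sexes (Cox8b in both), and DESeq2 called 1 over both sexes (Uqcrb, adjusted p = 0.0495). With each mouse left out in turn the count over both sexes was 0 to 1 for the 6 genes (mt-Co3 at -0.41 without hAPOE3 female 1, adjusted p = 0.035, -0.41 without hAPOE3 female 3, adjusted p = 0.0483, and -0.40 without hAPOE3 male 2, adjusted p = 0.0444) and 0 to 1 for the nuclear subunits (Uqcrb, without hAPOE3 male 2).

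Without the 5 mice with high ribosomal protein genes the male values turned to 0.00 for mt-Cytb, 0.07 for mt-Co2 and 0.04 for mt-Atp6, and those of the sexes over both genotypes to 0.09 for mt-Co2, 0.04 for mt-Co3 and 0.02 for mt-Atp6. The latter comparison also crossed 0 for mt-Cytb with the choroid plexus covariate (0.00), for mt-Co1 with copies added (0.00) and for mt-Co2 without the filter (0.00). Leaving out single mice moved values near 0 across it: in hAPOE3 mice mt-Co2 from -0.01 to 0.15 and mt-Co3 from -0.07 to 0.10, in hAPOE4 mice mt-Cytb from -0.12 to 0.02, mt-Co1 from -0.09 to 0.03 and mt-Co3 from -0.11 to 0.02, over both genotypes mt-Co2 from -0.04 to 0.04, mt-Co3 from -0.06 to 0.03, mt-Cytb from 0.00 to 0.07 and mt-Co1 from 0.00 to 0.06, and in the interaction mt-Co3 from -0.16 to 0.02. In males single mice moved the genotype values by more than 1.5 times without turning them: mt-Cytb from -0.22 to -0.08, mt-Co1 from -0.22 to -0.10, mt-Co2 from -0.28 to -0.13, mt-Atp6 from -0.23 to -0.10 and mt-Atp8 from -0.20 to -0.06, the values nearest 0 being those without hAPOE4 male 3 (mt-Cytb, mt-Co1, mt-Atp8) or hAPOE3 male 3 (mt-Co2, mt-Atp6). The causes of these changes were not tested.

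Counts over all genes moved by more than 1.5 times in these cases, among settings other than single mice left out. In females edgeR called 0.667% of 21724 genes, DESeq2 339 genes and edgeR without the 5 mice 95. In males edgeR called 135, against 322 by DESeq2, 31 without the 5 mice, 45 with only the 2 groups compared and 221 without the filter. Over both sexes it called 532, against 1163 by DESeq2 and 170 without the 5 mice. Between the sexes it called 9 in hAPOE3 mice (25 by DESeq2, 15 with the covariate), 95 in hAPOE4 mice (250 by DESeq2, 0.648% of the genes tested without the 5 mice, 32 with only the 2 groups, 189 without the filter) and 28 over both genotypes (215 by DESeq2, 84 with the covariate, 15 without the 5 mice). In the interaction it called 40, against 97 by DESeq2 and 0 by edgeR without the 5 mice, where 627 genes had an unadjusted p under 0.05. With single mice left out the counts were 74 (without hAPOE4 female 2) to 257 (without hAPOE3 female 1) in females, 99 to 288 in males, 283 (without hAPOE3 female 5) to 792 (without hAPOE3 female 1) over both sexes, 9 to 15 and 70 to 275 between the sexes in hAPOE3 and hAPOE4 mice, 14 (without hAPOE4 female 2) to 0.749% of the genes tested over both genotypes and 30 to 118 in the interaction, the highest count without hAPOE4 male 1 except where another mouse is named. No scaling moved the median of all genes by more than 0.01. DESeq2 size factors in edgeR, scaling on nuclear genes only, only the 2 groups compared, and length offsets changed no call and no direction of the 6 genes. No paired analysis was possible because the labels give the mice no shared replicate numbers.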
